A study of Homo sapiens with 5 samples.

Results

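The levels of 39 genes of NF-kB, TNF signaling and chemokines were followed in HCT116 cells, a human colorectal carcinoma cell line, after knockdown of ELK4, a transcription factor of the ETS family. The 39 genes were chosen by name, as a list of pathway members, with earlier results of these data known. All 39 were found among the 20026 genes measured. RNA-seq was carried out on 5 samples. The control group (pLKO) had 2 samples of cells transduced with the pLKO.1 lentiviral vector, and the knockdown group (shELK4) had 3 samples of stable cells carrying hairpins against ELK4 (shELK4_1, shELK4_2 and shELK4_3). All 5 were lentivirus-infected, puromycin-selected cells, and no cytokine treatment is named for any of them. The labels number the knockdown samples and do not name a hairpin, so 1 hairpin per sample is read from the 3 independent hairpins of the methods. The 3 samples served as replicates of the knockdown. Because the control vector was not compared with an unrelated hairpin, loss of ELK4 and the presence of any hairpin cannot be told apart. Nothing in the labels says whether the 2 control samples came from separate cultures, so p-values measure only the spread between these samples, which may be technical.

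NF-kB is a family of transcription factors that drives the genes of inflammation, and it is switched on by tumor necrosis factor (TNF), interleukin 1 and microbial products. At rest its subunits are held in the cytoplasm by IkB proteins. Signaling through receptor adaptors and ubiquitin ligases leads to destruction of the IkB proteins, after which the subunits enter the nucleus and activate chemokine and adhesion genes together with their own inhibitors. In colorectal cancer cells the pathway is known for survival signaling and for chemokines that attract neutrophils.

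Levels were deposited as FPKM, the number of sequenced fragments relative to transcript length and to the mapped reads of the sample, so levels of different genes can be compared per length. ELK4 (GRCh38 chromosome 1, 205597556 to 205632011) had 8.62 and 7.60 FPKM in pLKO and 3.14, 2.82 and 2.44 in the 3 hairpins in order. Its log2 fold change was −1.26 (± 0.12 SE, limma adjusted p = 0.029), and with 1 sample left out the adjusted p lay between 0.0752 and 0.483, except without shELK4 replicate 2 (0.0366). The depth of each sample is unknown. Ratios between low values (under 0.1 FPKM) did not settle how depth differed between samples, since 14.7% to 23.0% of those genes lay at the most frequent ratio and nearly as many, 12.1% to 18.9%, at a doubling or halving of it. Of 11 colon epithelial markers, 8 were at or above 1 FPKM in every sample, while VIL1, CDX1 and LGALS4 did not exceed 0.0827 FPKM. Of the 8 leukocyte markers, CD3E, MS4A1 and CD2 were listed at 0 in every sample, PTPRC did not exceed 0.00526 FPKM, and CD14, ITGAM and CSF1R reached 0.156, 0.176 and 0.2997 FPKM. The 3 endothelial markers did not exceed 0.0526 FPKM. CD68 and COL1A1 were the markers of other cell types that passed 1 FPKM, at 5.23 to 14.1 and 3.10 to 4.21 FPKM. The summed FPKM of the epithelial list was 2848 and 2895 in the controls and 2246, 1621 and 1762 in the hairpins. Most of this gap lay in the 3 keratins (KRT8, KRT18 and KRT19), with sums of 2438 and 2477 against 1800, 1328 and 1451. Without them the sums were 409.6 and 417.9 against 446.4, 293.2 and 310.7, so that shELK4_1 was above the controls and the other two below. KRT18 had the largest log2 fold change of the tested markers of this list (−1.10). It had 639 and 634 FPKM in pLKO and 397, 216 and 303 after knockdown. In FPKM the fall of KRT8 was larger, from 1071 and 1072 to 792, 583 and 670. EPCAM, CDH1, CLDN4 and ELF3, by contrast, were above both controls in shELK4_1. The part of the keratin difference in the results below was not tested.

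The machinery of the pathway was present in HCT116 cells, and most of its secreted products were scarce. TNFRSF12A, the receptor for the cytokine TWEAK, had the highest level of the 39 genes, between 145 and 189 FPKM. RELA, the main activating subunit, NFKBIB, an IkB protein, TNFRSF1A, the chief TNF receptor, and the cytokine gene IL18 followed, with means over all samples of 32.2, 32.1, 32.2 and 30.9 FPKM. The order of these 4 was within the spread over samples. TNF itself was listed at 0 in 4 of the 5 samples and at 0.0573 FPKM in shELK4_3. CXCL5 was listed at 0 in all 5 samples. To be tested a gene had to reach 1 FPKM in 2 or more samples, which 28 of the 39 genes did. Of these, 26 were at or above 1 FPKM in every sample, and CXCL8 and IL32 in 4 samples. The 11 others were TNFAIP3, TRAF1, TNFRSF1B, CXCL2, CXCL3, CXCL5, CCL20, IL1A, IL1B, TNF and LTB.

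**Figure D1:**
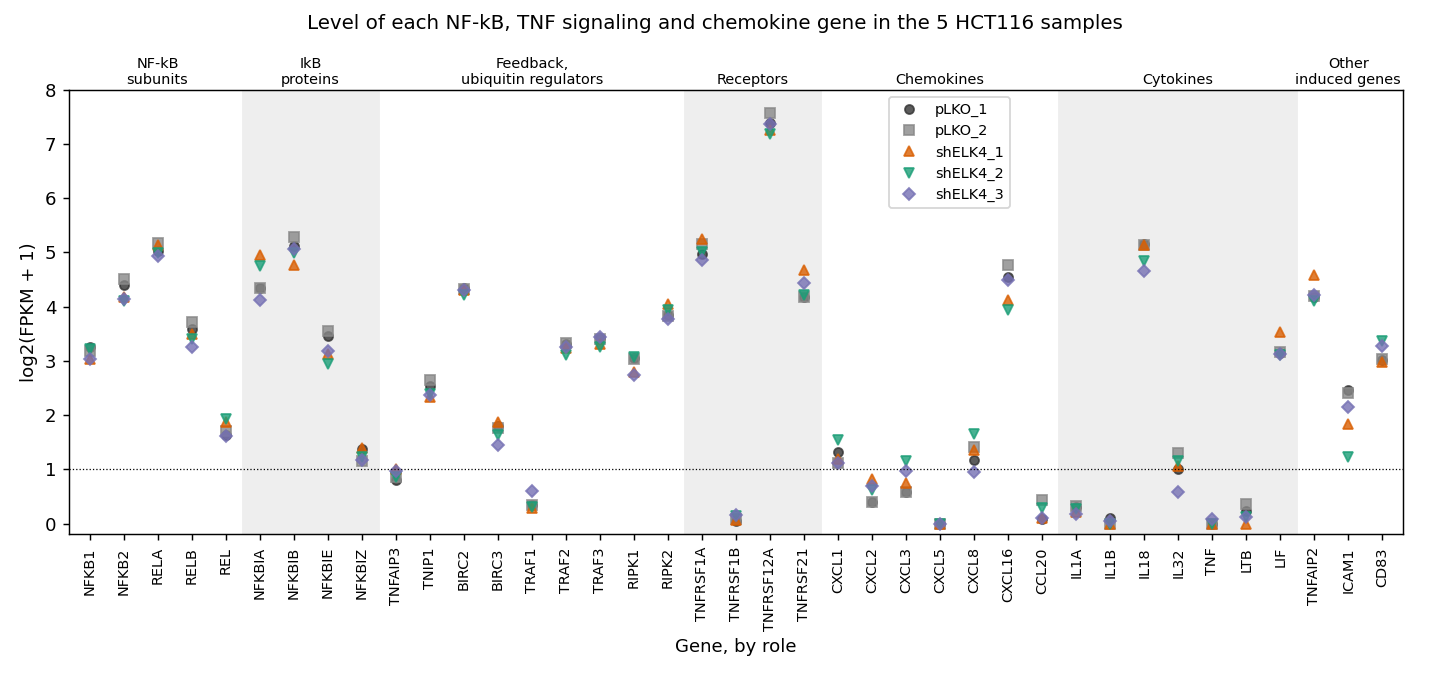
Levels of the 39 genes as log2(FPKM + 1), grouped by role along the horizontal axis, with 1 symbol for each of the 5 samples. The dotted line marks an FPKM of 1. TNFRSF12A lies highest, between 145 and 189 FPKM, and CXCL5 lies at 0 in every sample.

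Many promoters of these genes carried sequences of the kind NF-kB binds. RefSeq promoter windows (GRCh38.p14, from 250 bases before to 50 bases after each start) were matched for 32 of the 39 genes. RELB, NFKBIE, CXCL16, IL18, TNFRSF12A, RIPK2 and LIF had no entry. The decameric kB consensus, searched on both strands, was found for 18 of the 32 genes (CXCL1, CXCL2, CXCL3, NFKB1, NFKB2, NFKBIA and TNIP1 among them), against 9.16% of all 27167 genes with a window. The nonamer GGAATTTCC, which lies inside many consensus matches, was found for 11 of the 32 genes and for 0.563% of all genes. A second nonamer, GGGAATTCC, was found for 1 of the 32, NFKB2, and for 0.28% of all genes. Both nonamers were taken from promoters of known NF-kB targets. The list holds such targets, so these shares are a description and test nothing. The ETS core CCGGAAGT, a sequence that ELK4 can bind, was found for 0 of the 32 genes and for 4.91% of all genes, and the GC box CCCCGCCCC for 13 of the 32 and for 18.4% of all. A match in letters is not a measured binding site, and no binding was measured in these samples.

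Around the kB consensus, 30 bases are shown 5′ to 3′ on the strand of the gene, with the match in capitals. The 3 CXCL genes are shown because they lie in 1 cluster on chromosome 4 and 2 of them had higher values after knockdown. CXCL5 of the same cluster, at 0 FPKM in every sample, had a match with the same letters beginning at −91 and is not printed. NFKB2 and TNIP1 are shown because all their knockdown values lay below both controls. NFKBIB met the same reason, with a consensus match beginning at −28, and is not printed. NFKB2 had 4 matches in its windows, of which those before the upstream start are printed.
CXCL1, chr4:73869304-73869333, plus strand: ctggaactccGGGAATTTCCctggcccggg
CXCL2, chr4:74099254-74099283, minus strand: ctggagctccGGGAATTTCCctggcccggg
CXCL3, chr4:74038749-74038778, minus strand: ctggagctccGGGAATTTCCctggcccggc
NFKB2, chr10:102394461-102394490, plus strand: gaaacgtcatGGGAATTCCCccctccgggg
NFKB2, chr10:102394490-102394519, plus strand: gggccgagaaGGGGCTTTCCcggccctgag
TNIP1, chr5:151081057-151081086, minus strand: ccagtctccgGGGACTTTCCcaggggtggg
Counted so that −1 is the base just before the start, the match began at −79 in CXCL1, −78 in CXCL2 and −79 in CXCL3, with the same letters in all 3 genes. In NFKB2 the matches began at −107 and −78, and in TNIP1 at −42.

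For ICAM1, which had the largest log2 fold change of the tested genes of the list, and for NFKBIA, which differed in direction between hairpins, the 200 bases before the start are given, with kB matches (consensus or nonamer) in capitals.
ICAM1, chr19:10270920-10271119, plus strand: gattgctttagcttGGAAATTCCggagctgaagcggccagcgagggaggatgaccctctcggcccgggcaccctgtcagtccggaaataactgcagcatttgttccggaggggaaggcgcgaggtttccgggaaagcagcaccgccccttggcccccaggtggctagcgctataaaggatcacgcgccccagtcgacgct
NFKBIA, chr14:35404750-35404949, minus strand: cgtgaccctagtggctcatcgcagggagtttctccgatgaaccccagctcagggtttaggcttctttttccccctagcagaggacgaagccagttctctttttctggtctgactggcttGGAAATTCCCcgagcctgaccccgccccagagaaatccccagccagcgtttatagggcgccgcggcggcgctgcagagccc
The ICAM1 match, to the nonamer alone, began at −186 and the NFKBIA match at −81, both on the opposite strand of the gene.

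To see whether loss of ELK4 was accompanied by a change of this pathway, the 3 knockdown samples were compared with the 2 controls on the log2(FPKM + 1) scale with limma, and p-values were adjusted by Benjamini-Hochberg over the 10780 tested genes. NFKB2, RELB, NFKBIE, CXCL16 and ICAM1 were lower in each of the 3 hairpins than in either control. These 5 of the 28 genes (17.9%) were lower at an unadjusted p under 0.05, where 8.14% of all tested genes did. In the higher direction it was 0 of 28, against 8.08% of all. None of the 28 (0 genes) had an adjusted p under 0.05, which 0.167% of all tested genes had. With a weight for each group it was also 0 of 28, against 3.83% of all. Without pLKO replicate 1 the count of 5 became 3, and without pLKO replicate 2 it became 0. With either of these samples left out, the counts over all genes also dropped, from 878 to 299 and to 224. On this scale 0 of the 28 genes had a log2 fold change of at least 1 either way, which 0.473% of all tested genes had. The median log2 fold change was −0.10 over the 28 genes and −0.01 over all tested genes.

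The knockdown values lay entirely below the controls for 11 of the 28 tested genes (39.3%) and entirely above them for 1 (3.57%). Across all tested genes these shares were 21.0% below and 19.1% above. The 11 lower genes were NFKB2, RELB, NFKBIB, NFKBIE, TNIP1, BIRC2, CXCL16, IL18, TNFRSF12A, TRAF2 and ICAM1, and the higher gene was TNFRSF21. The count of 1 became 3 without pLKO replicate 1, 2 without shELK4 replicate 1 or 2, and 4 without shELK4 replicate 3. With 1 sample left out, groups separate more easily for any gene, and the share of all tested genes was not counted there. The mean was lower after knockdown for 19 of the 28 (67.9%) and for 51.8% of all tested genes.

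**Figure D2:**
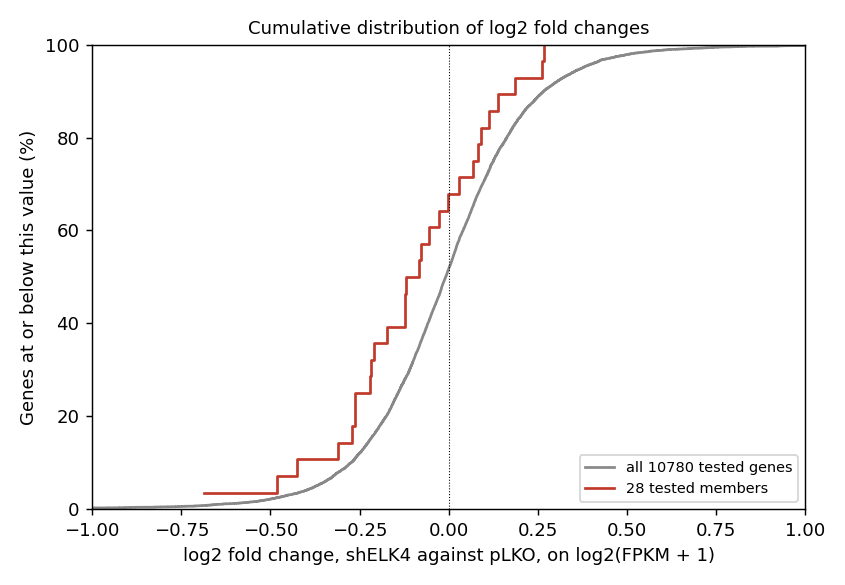
Cumulative share of genes, in percent, by their log2 fold change between shELK4 and pLKO on log2(FPKM + 1), for all 10780 tested genes and for the 28 tested genes of the list. At the quartiles and the median the curve of the list lies to the left of the curve of all genes, with medians of −0.10 and −0.01. Below −0.69, the lowest value of the list, only the curve of all genes has risen.

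Among the 5 subunits, those of the non-canonical branch were lower and those of the canonical branch showed overlapping groups. NFKB2 (chromosome 10, 102394110 to 102402524), which encodes the p100 precursor of p52, had 20.0 and 21.8 FPKM in pLKO. It had 17.0, 16.3 and 16.7 in the 3 hairpins in order. The 3 hairpins thus lay close together and below both controls, a log2 fold change of −0.31 (± 0.09 SE, limma adjusted p = 0.178). RELB (chromosome 19, 45001461 to 45038192), the partner of p52, had 10.99 and 12.1 FPKM in pLKO and 10.2, 9.53 and 8.61 in the 3 hairpins in order. All 3 were lower, with the smallest gap in shELK4_1 (log2 fold change −0.26 ± 0.11 SE, limma adjusted p = 0.296). NFKB1, the gene for p105 and p50, had 8.56 and 8.07 FPKM in pLKO and 7.15, 8.34 and 7.22 after knockdown, so shELK4_2 lay between the controls. RELA had 31.6 and 35.0 FPKM against 34.2, 30.6 and 29.4, and REL, the c-Rel gene, had 2.09 and 2.25 against 2.65, 2.83 and 2.05. Both groups of RELA and of REL overlapped, with log2 fold changes of −0.08 (SE 0.10) and 0.14 (SE 0.13). Of the 50-base words of REL transcripts, 32.9% occur in another annotated gene, so its reads could be split. The difference between the branches was not tested.

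The IkB genes differed in direction. NFKBIE (chromosome 6, 44258166 to 44265788), the gene for IkB epsilon, had 10.01 and 10.8 FPKM in pLKO and 7.73, 6.70 and 8.09 after knockdown. It was lower in every hairpin, with a mean of 7.50 ± 0.720 FPKM (SD, n = 3) against 10.4 ± 0.557 (SD, n = 2). Its log2 fold change of −0.43 (± 0.11 SE, limma adjusted p = 0.147) had the lowest p of the 28 tested genes. NFKBIB, the gene for IkB beta, had 33.6 and 37.8 FPKM in pLKO and 26.2, 30.6 and 32.2 after knockdown, also below both controls (log2 fold change −0.26 ± 0.12 SE, limma adjusted p = 0.333). NFKBIA (chromosome 14, 35401079 to 35404749) encodes IkB alpha, the inhibitor that NF-kB itself induces. It had 19.3 FPKM in both controls and 29.9, 26.0 and 16.3 in the 3 hairpins in order. The first and second hairpins were thus above the controls and the third below them. Its log2 fold change of 0.27 (± 0.24 SE, limma adjusted p = 0.612) was smaller than the scatter of the hairpins, and without shELK4 replicate 3 it was 0.51. NFKBIZ, the gene of the nuclear IkB zeta, had 1.59 and 1.23 FPKM against 1.61, 1.35 and 1.24, with no difference in the mean (log2 fold change −0.00078, SE 0.12).

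**Figure D3:**
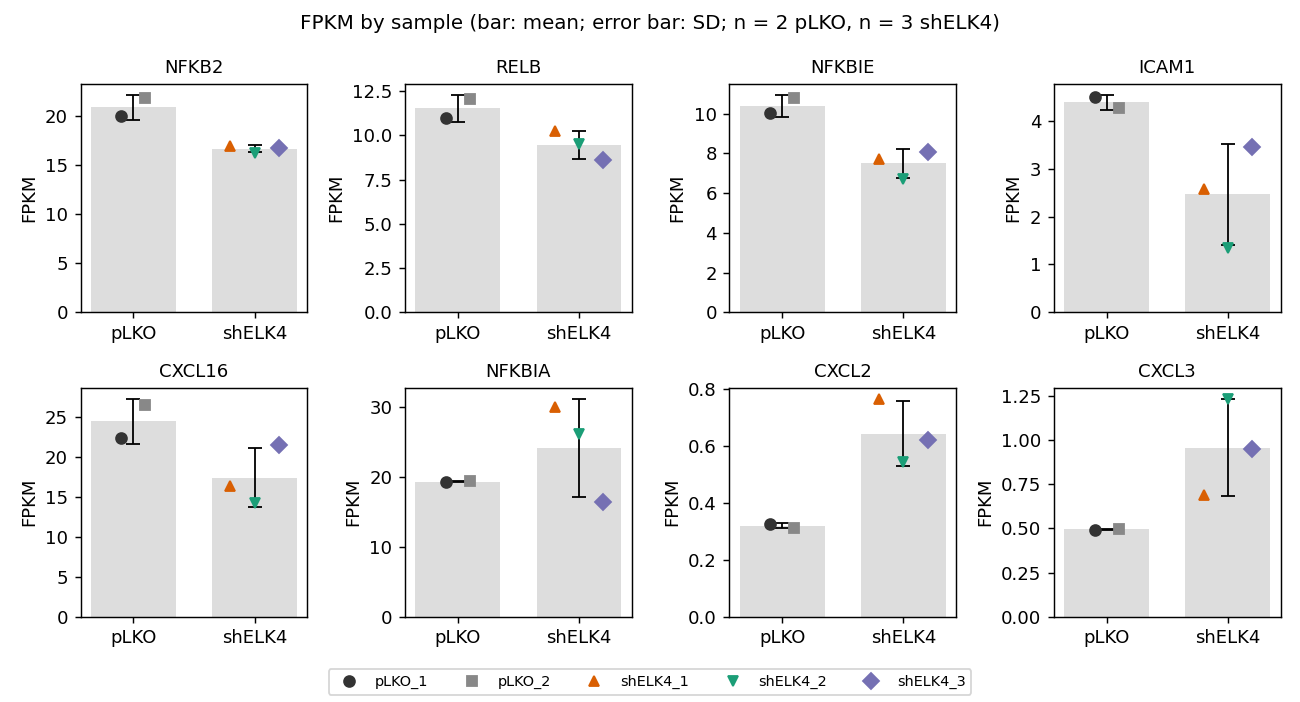
FPKM of 8 genes in each sample, with bars at the group mean and error bars of 1 SD (n = 2 pLKO, n = 3 shELK4). NFKB2, RELB, NFKBIE, ICAM1 and CXCL16 lie below both controls in every hairpin, CXCL2 and CXCL3 lie above them, and NFKBIA lies above in shELK4_1 and shELK4_2 and below in shELK4_3.

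The feedback and ubiquitin regulators showed small differences. TNFAIP3, the gene for the deubiquitinase A20 and a classical feedback target, stayed below the limit for testing, at 0.736 and 0.806 FPKM in pLKO and 1.01, 0.822 and 0.946 in the hairpins. All 3 values were higher, the one of shELK4_2 by less than the gap between the controls. TNIP1, which encodes an A20-binding partner, had 4.78 and 5.24 FPKM in pLKO and 4.07, 4.26 and 4.16 after knockdown, a log2 fold change of −0.22 (± 0.09 SE, limma adjusted p = 0.313). The hairpins lay close together, all below both controls. BIRC2, the gene for the ubiquitin ligase cIAP1, had 19.3 and 19.1 FPKM against 18.8, 17.7 and 18.8, and TRAF2, an adaptor of the TNF receptors, had 8.93 and 9.03 against 8.41, 7.58 and 8.52. Groups did not overlap for either gene, although the differences of the means were small, at 96.0% and 90.9% of the control mean. BIRC3, which encodes cIAP2 and is itself an NF-kB target, had 2.46 and 2.37 FPKM against 2.69, 2.09 and 1.73, on both sides of the controls. The log2 fold changes of TRAF3, RIPK1 and RIPK2 were −0.08, −0.17 and 0.08, with overlapping groups. TRAF1 had 0.273 and 0.270 FPKM in pLKO, 0.222 and 0.229 in shELK4_1 and shELK4_2, and 0.524 in shELK4_3.

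Of the 4 receptors, TNFRSF12A had 167 and 189 FPKM in pLKO and 152, 145 and 165 after knockdown. All hairpins were lower, shELK4_3 only slightly, and the log2 fold change was −0.21 (± 0.10 SE, limma adjusted p = 0.356). TNFRSF21, the gene for death receptor 6, had 17.2 FPKM in both controls and 24.6, 17.6 and 20.7 after knockdown. It was the only tested gene of the list whose knockdown values all lay above the controls (log2 fold change 0.26 ± 0.14 SE, limma adjusted p = 0.406), and shELK4_2 was barely above them. TNFRSF1A had 30.4 and 34.7 FPKM against 37.1, 31.0 and 28.0, with shELK4_1 above and shELK4_3 below both controls. TNFRSF1B, the second TNF receptor, did not exceed 0.122 FPKM in any sample.

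The chemokines went in different directions. CXCL16 (chromosome 17, 4733533 to 4739928), a transmembrane chemokine and the most abundant of the 7, had 22.4 and 26.4 FPKM in pLKO. It had 16.3, 14.3 and 21.5 in the 3 hairpins in order. The third hairpin lay just under the lower control, and the log2 fold change was −0.48 (± 0.17 SE, limma adjusted p = 0.254). CXCL1, a neutrophil attractant, had 1.49 and 1.16 FPKM in pLKO and 1.27, 1.93 and 1.16 after knockdown. CXCL8, the interleukin 8 gene, had 1.26 and 1.66 FPKM against 1.55, 2.16 and 0.946. For both genes shELK4_2 was the highest of the 5 samples, and the groups overlapped, with log2 fold changes of 0.07 (SE 0.16) and 0.03 (SE 0.21).

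CXCL2 and CXCL3, which act on the same receptor as CXCL1, were below the limit for testing and were higher in every hairpin. CXCL2 had 0.325 and 0.312 FPKM in pLKO and 0.765, 0.542 and 0.622 after knockdown, and the knockdown mean was 202% of the control mean. CXCL3 had 0.493 and 0.496 FPKM in pLKO and 0.689, 1.24 and 0.950 after knockdown, 194% of the control mean. The order of the hairpins differed between the pair, with shELK4_1 highest for CXCL2 and shELK4_2 highest for CXCL3. Fitted together with every gene above 0, CXCL2 had a log2 fold change of 0.32 (± 0.06 SE, limma adjusted p = 0.190) and CXCL3 of 0.38 (± 0.12 SE, limma adjusted p = 0.302). This scale understates changes of genes with so low an FPKM, and with a pseudocount of 0.1 the values were 0.82 and 0.80. Among the 50-base words of CXCL2 transcripts, 13.4% also occur in other genes, mostly CXCL3, and 6.01% of those of CXCL3 occur in others, so reads could be split between them. CCL20, a lymphocyte attractant, had 0.0650 and 0.357 FPKM in pLKO and 0.0695, 0.220 and 0.0723 in the hairpins, and its 2 controls alone spanned the knockdown values.

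Of the 7 cytokine genes, IL18 had the highest level. It had 34.7 and 34.2 FPKM in pLKO and 34.1, 27.7 and 24.1 in the 3 hairpins in order. The first hairpin was next to the controls and the other two were lower, for a log2 fold change of −0.27 (± 0.15 SE, limma adjusted p = 0.406). LIF, a cytokine of the interleukin 6 family, had 7.90 and 7.98 FPKM in pLKO and 10.6, 7.58 and 7.72 after knockdown, so it was higher in shELK4_1 alone. IL32 had 1.004 and 1.46 FPKM against 1.08, 1.23 and 0.488. IL1A had 0.240 and 0.253 FPKM in pLKO and 0.153, 0.204 and 0.133 in the hairpins. LTB, the lymphotoxin beta gene, had 0.178 and 0.280 FPKM in pLKO, was listed at 0 in shELK4_1 and had 0.0928 and 0.0926 in the other two. Both IL1A and LTB were lower in all 3 hairpins, at levels far under the limit for testing. IL1B was listed at 0 in 3 samples and did not exceed 0.0801 FPKM. Among the 10 genes of the list that were above 0 but below the limit, 3 (TNFAIP3, CXCL2 and CXCL3) were higher in all hairpins and 2 (IL1A and LTB) lower. Of all 16223 genes above 0, 16.9% were higher and 16.8% lower in this way. This total includes the 10780 tested genes, of which 19.1% were higher and 21.0% lower. The share among genes below the limit alone was not counted.

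ICAM1 (chromosome 19, 10271093 to 10286615), an adhesion molecule for leukocytes and a classical NF-kB target, had the largest log2 fold change of the 28 tested genes of the list. It had 4.503 and 4.28 FPKM in pLKO and 2.59, 1.35 and 3.45 in the 3 hairpins in order. All hairpins were lower, but they differed from each other by more than the third differed from the controls. The mean was 56.1% of the control mean, and the log2 fold change was −0.69 (± 0.25 SE, limma adjusted p = 0.260). On the opposite strand, exons of other genes, mostly ICAM4-AS1, cover 22.6% of the 50-base words of ICAM1. The strand setting of the libraries is not given in the sources used here, so reads of the pair cannot be told apart. CD83 had 7.05 and 7.16 FPKM in pLKO and 6.90, 9.27 and 8.67 after knockdown, and TNFAIP2, a TNF-induced gene, had 17.2 and 17.3 against 23.1, 16.2 and 17.7. For both genes 2 hairpins lay above the controls and 1 below them.

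Read by hairpin, large differences were as frequent in the list as among all tested genes. A gene was counted in a hairpin when it lay at least 0.5 on the log2(FPKM + 1) scale above or below both controls. In at least 1 hairpin this held for 4 of the 28 genes (14.3%), against 14.3% of all tested genes. In shELK4_1 this held for NFKBIA above (1 of 28, against 3.63% of all tested genes) and ICAM1 below (1 of 28, against 2.37%). In shELK4_2 it held for NFKBIE, CXCL16 and ICAM1 below (3 of 28, against 4.67%) and for no gene above (0 of 28, against 2.49%). In shELK4_3 it held for no gene (0 of 28) in either direction, against 2.94% above and 3.01% below. No gene of the list passed in all 3 hairpins, which 1.08% of all tested genes did. The median difference from the control mean over the 28 genes was −0.03, −0.10 and −0.17 in the 3 hairpins in order. Over all tested genes it was −0.01, −0.02 and 0.01. The range over the 3 hairpins had a median of 0.33 among the 28 genes and of 0.27 among all tested genes, and the gap between the 2 controls had a median of 0.07 and of 0.06. A range over 3 samples is wider than a gap between 2 by construction, but pairs of samples can be compared directly. Over genes, the SD of the log2 difference was 0.12 between the 2 controls and 0.27 to 0.31 between any 2 hairpins. Between a control and a hairpin it was 0.29 to 0.32. The hairpins thus differed from each other by more than the controls did, and the cause was not tested. With 1 sample per hairpin, none of these differences between hairpins has a replicate.

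**Figure D4:**
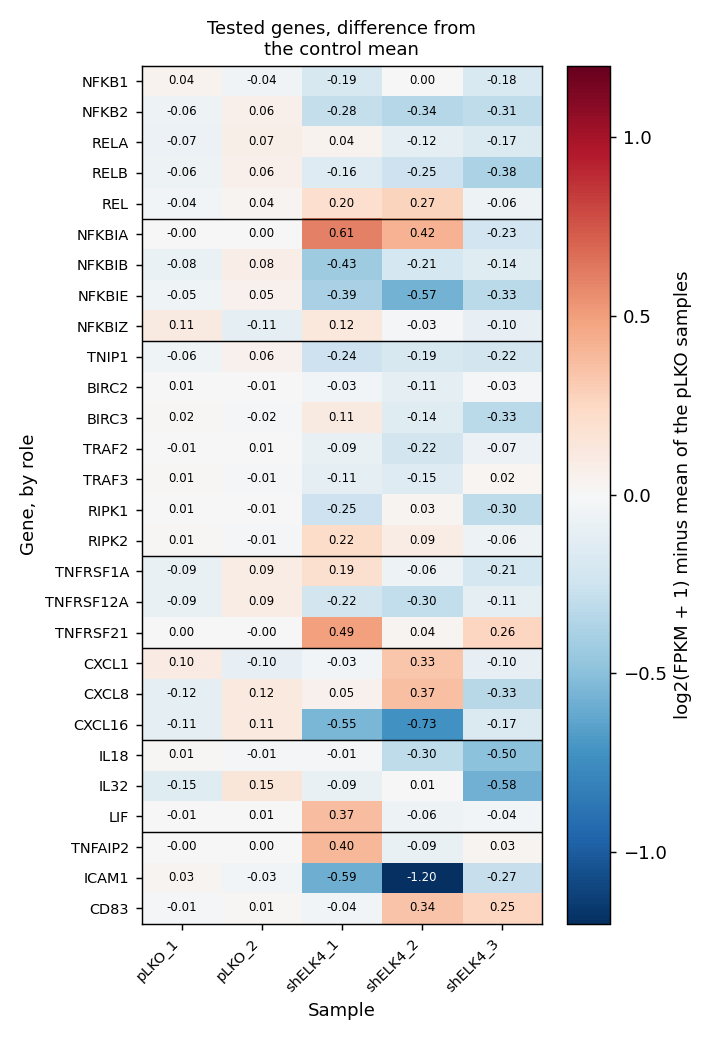
Difference of log2(FPKM + 1) from the mean of the 2 pLKO samples, for the 28 tested genes in rows, grouped by role, and the 5 samples in columns, with the value printed in each cell. NFKB2 and TNIP1 are lower in all 3 hairpins, NFKBIE is lower in all 3 and most in shELK4_2, while NFKBIA is 0.61 and 0.42 higher in shELK4_1 and shELK4_2 and 0.23 lower in shELK4_3.

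Further genes of the pathway were taken from a list of 54 receptors, adaptors, kinases and regulators, of which 48 were tested. This list and the list of other targets below were drawn up with earlier results of these data known. Their shares are therefore a description and test nothing. An unadjusted p under 0.05 was reached by 7 in the lower direction (14.6%, against 8.14% of all tested genes) and by 0 in the higher (against 8.08%), and 0 had an adjusted p under 0.05. When each group was given a weight, 1 of the 48 did, against 3.83% of all, which was TLR3 (adjusted p = 0.0431, and up to 0.21 over the alternatives). Lower values were found for TLR3, TAX1BP1, MYD88, LTBR, TAB3, TRAF4 and TNFRSF10D. TLR3, the receptor for double-stranded RNA, had 1.35 and 1.14 FPKM in pLKO and 0.392, 0.418 and 0.698 after knockdown (log2 fold change −0.58 ± 0.12 SE, limma adjusted p = 0.119). TAX1BP1, a partner of A20, had 31.3 and 31.8 FPKM against 25.3 in each hairpin, so that the knockdown samples were nearly identical. MYD88, the adaptor of interleukin 1 and Toll-like receptors, had 7.40 and 7.15 FPKM against 5.94, 4.57 and 5.35. LTBR, the lymphotoxin beta receptor that feeds the NFKB2 branch, had 36.8 and 38.5 FPKM against 32.9, 26.0 and 25.6. TLR3, which is counted among the 7, reached the limit for testing through the controls alone. Its lower values after knockdown are thus not independent of the limit, and the 7 and the 14.6% include it. The log2 fold change of TLR3 was −1.19 with a pseudocount of 0.1. All 3 hairpins were below both controls for each of these 4 genes. This held for 13 of the 48 genes (27.1%), against 21.0% of all tested genes. For 5 of the 48 (10.4%, against 19.1% of all), CHUK, TBK1, TAB1, IRAK2 and BCL3, all hairpins were above both controls. BCL3 reached the limit for testing through the hairpins alone. The mean was lower for 37 of the 48 (77.1%, against 51.8% of all), and the median log2 fold change was −0.08. The count of 7 did not hold with either control left out, where only 1 control remained, and without shELK4 replicate 3 it became 11. Counts over all tested genes also moved with the sample left out, and no share of all genes is set beside these changes.

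Of 50 other NF-kB target genes, 19 were tested. An unadjusted p under 0.05 was found for 4 in the lower direction (SDC4, LCN2, PLK2 and GADD45B; 21.1%, against 8.14% of all tested genes) and for 1, TNFAIP8, in the higher (5.26%, against 8.08%), and 0 had an adjusted p under 0.05. When each group was given a weight, 2 of the 19 did (10.5%, against 3.83% of all), which were SDC4 (adjusted p = 0.0333, and up to 0.933 over the alternatives) and LCN2 (adjusted p = 0.0355, and up to 0.93). SDC4, a heparan sulfate proteoglycan of the cell surface, had 86.5 and 91.4 FPKM in pLKO and 57.7, 71.2 and 54.9 after knockdown (log2 fold change −0.54 ± 0.13 SE, limma adjusted p = 0.136). LCN2, an iron-sequestering protein of the epithelial defense, had 2.33 and 2.36 FPKM against 1.56, 0.486 and 0.531 (log2 fold change −0.89 ± 0.24 SE, limma adjusted p = 0.165). With a pseudocount of 0.1 the log2 fold change of LCN2 was −1.52. Both genes were lower in every hairpin, LCN2 least in shELK4_1. All hairpins were below both controls for 5 of the 19 genes (26.3%, against 21.0% of all tested genes). They were above both for 2, JUNB and TNFAIP8 (10.5%, against 19.1%). The median over the 19 genes was −0.08. The counts of 4 and of 1 did not hold with either control left out, where only 1 control remained. Without shELK4 replicate 1 the count of 1 became 2, and without shELK4 replicate 3 it became 4. Counts over all tested genes also moved with the sample left out, and no share of all genes is set beside these changes.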

How the data were processed

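Poly(A) RNA of 5 HCT116 samples was sequenced on an Illumina HiSeq. The authors deposited 1 table per sample with FPKM values per gene, which Cufflinks had scaled to the mapped reads of that sample. The submitters' processing notes name Trimmomatic 0.36, HISAT2 2.0.5, Cufflinks 2.2.1 and HTSeq 0.9.1, and the genome build is not given in the sources used here. Positions are from GENCODE release 44 (GRCh38) and were not matched to the authors' build. Each table had 20030 entries, and 4 entries of 2 repeated names were dropped. FPKM values carry no counts, so no counting error is given.

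Groups were taken from the sample titles. Genes reaching 1 FPKM in 2 or more samples (10780) were fitted with limma 3.58.1 (R 4.3.3, trended empirical Bayes, two-sided) on log2(FPKM + 1), a scale that understates changes of low genes. The fit was tested on simulated data. The members and gene lists were chosen with earlier results of these data known. Members were named in full where the unadjusted p was under 0.05, where groups did not overlap, or for subunits, IkB genes, TNFAIP3 and chemokines. From the other lists, genes with an unadjusted p under 0.05 were named, at most 10 per list. Values of the remaining members were added after they were seen, as were KRT18 and the genes chosen for figures and printed sequences. Words of 50 bases were counted in GENCODE transcripts. Alternatives were a pseudocount of 0.1, no limit on FPKM, median-of-ratios scaling, a weight for each group, the replicate number as a block and each sample left out. A fit without the variance trend was added after the data were seen.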

Additional observations from a re-analysis of the deposited data

How the results depend on the processing

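With every gene above 0 tested, 2 members instead of 0 had an unadjusted p under 0.05 in the higher direction and 4 instead of 1 lay above both controls, because CXCL2, CXCL3 and TNFAIP3 entered the test. The other targets then counted 2 higher, and 0 genes in all had an adjusted p under 0.05. These counts were the same with a pseudocount of 0.1 added, and the log2 fold change of ELK4 was −1.26 (adjusted p = 0.114) and −1.51 (adjusted p = 0.145) in these fits. With a weight for each group, 1 member, 1 other pathway gene and 2 other targets were higher, and over all genes 413 (TLR3, SDC4 and LCN2 among them) had an adjusted p under 0.05 and 1328 were lower at an unadjusted p under 0.05. The replicate numbers 1 and 2 are shared by the groups without a stated meaning, and deviations of same-numbered samples correlated at 0.0776 and 0.0225. With the replicate number as a block, 1 member and 3 other targets were higher, and NFKBIZ changed sign to 0.047.

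With each sample left out in turn, members counted 0 to 1 higher and 0 to 6 lower at an unadjusted p under 0.05, and 1 to 4 lay above both controls. Other pathway genes counted 0 to 1 higher and 0 to 11 lower, and other targets 0 to 4 higher and 2 to 5 lower. Over all genes 0 to 95 had an adjusted p under 0.05, 282 to 1248 were higher and 224 to 1193 lower. ELK4 ranged from −1.34 to −1.18 (adjusted p above 0.05 except without shELK4 replicate 2). NFKBIZ (−0.11 to 0.11), CXCL1 (−0.066 to 0.17) and CXCL8 (−0.14 to 0.21) changed sign in some of these fits. No member had an adjusted p under 0.05 in any of these alternatives. Median-of-ratios scaling, a pseudocount of 0.1 alone and a fit without the variance trend, the last chosen after seeing the data, kept each of these counts within 1.5 times. No scaling moved the median of all genes by 0.1. With 2 controls and unknown depth, small differences and genes under 1 FPKM are poorly resolved.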
